A study of Mus musculus with 4 samples.

Results

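The genes described here build and run the contractile machinery of striated muscle. The list names 48 genes, most of them for proteins of the sarcomere, its filaments, its Z disc, its energy supply and its assembly, and 12 for proteins that release, pump or buffer calcium. They were found by gene name in the expression table of each library, and 47 of the 48 had a value in every library, among 25395 genes whose values could be used. The expression of Acta1, skeletal muscle alpha-actin, was not analysed here. RNA was sequenced from satellite cells, which are muscle stem cells, taken from C57BL/6 mice of 4 weeks and then cultured for 24 h in growth medium. For the sort by flow cytometry the cells were stained for CD45, Ter119, CD31, Sca1 and integrin alpha 7. In such a sort the first 3 stains serve to remove blood and endothelial cells, and integrin alpha 7 marks satellite cells. HDAC4 KO cells (2 libraries, replicates 3 and 4) came from mice with floxed Hdac4 alleles (HDAC4fl/fl) and a tamoxifen-inducible Cre in the Pax7 gene (Pax7CE/+) that received tamoxifen. Control cells (2 libraries, replicates 3 and 4) came from mice of the same genotype that received vehicle. Animals of both groups therefore carried a single working Pax7 allele, the recombination was limited to cells that express Pax7, and tamoxifen itself was given to the HDAC4 KO group alone. The labels do not say whether the libraries of a group came from separate animals, so every p-value measures the spread between these libraries, which may be technical.

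The sarcomere is the repeating unit of the myofibril. Thin filaments of actin, tropomyosin and troponin slide along thick filaments of myosin, between Z discs that anchor the thin filaments. Contraction starts when the ryanodine receptor, driven by the voltage sensor of the transverse tubule, releases calcium that binds troponin C, and it ends when the SERCA pump returns calcium to the sarcoplasmic reticulum. Undifferentiated satellite cells make little of this machinery, and most of its genes are switched on when myoblasts leave the cell cycle and fuse. HDAC4 is a class IIa histone deacetylase that represses transcription, in muscle largely through MEF2 factors.

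The proximal promoters of 4 of these genes are shown because they stand for the patterns described below. Tnnt2 and Des lay above both controls in either HDAC4 KO library, and Mylpf and Actc1 stood many times higher in control 3 than in the other libraries. The sequences are from RefSeq (GRCm38.p6), 5′ to 3′ on the strand of the gene, from 250 bases before to 50 after the transcription start. Capitals mark matches to the E box (CANNTG), to the MCAT element (CATTCC or its reverse complement GGAATG), to the MEF2 site and to the CArG box of serum response factor, the last 2 by their usual consensus, which reads alike on both strands. No 2 matches overlapped in these windows.
Tnnt2 (chr1:135836084-135836383, plus strand): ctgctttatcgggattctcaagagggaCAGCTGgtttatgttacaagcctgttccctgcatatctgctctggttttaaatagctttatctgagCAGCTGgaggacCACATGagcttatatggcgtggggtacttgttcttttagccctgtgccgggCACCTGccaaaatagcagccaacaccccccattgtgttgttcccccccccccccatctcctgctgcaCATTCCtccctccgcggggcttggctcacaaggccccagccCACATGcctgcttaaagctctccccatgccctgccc
Des (chr1:75360042-75360341, plus strand): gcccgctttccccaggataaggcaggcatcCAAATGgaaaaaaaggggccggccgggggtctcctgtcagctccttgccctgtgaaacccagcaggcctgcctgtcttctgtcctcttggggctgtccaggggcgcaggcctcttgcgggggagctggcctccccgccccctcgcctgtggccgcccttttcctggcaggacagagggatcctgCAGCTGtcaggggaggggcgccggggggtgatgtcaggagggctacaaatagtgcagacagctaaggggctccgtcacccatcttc
Mylpf (chr7:127211358-127211657, plus strand): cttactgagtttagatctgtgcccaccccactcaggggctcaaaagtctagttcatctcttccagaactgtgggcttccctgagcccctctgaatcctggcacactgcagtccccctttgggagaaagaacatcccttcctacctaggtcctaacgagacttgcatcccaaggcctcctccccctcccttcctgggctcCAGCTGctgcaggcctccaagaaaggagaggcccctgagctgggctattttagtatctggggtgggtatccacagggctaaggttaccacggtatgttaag
Actc1 (chr2:114052826-114053125, minus strand): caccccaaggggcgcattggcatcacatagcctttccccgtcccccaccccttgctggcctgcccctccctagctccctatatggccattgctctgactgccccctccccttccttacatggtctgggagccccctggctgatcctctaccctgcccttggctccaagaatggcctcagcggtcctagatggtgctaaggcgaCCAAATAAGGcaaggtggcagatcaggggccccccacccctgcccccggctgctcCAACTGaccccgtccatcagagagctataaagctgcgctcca

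The Tnnt2 window held 5 E boxes and 1 MCAT element, the Des window 2 E boxes, the Mylpf window 1 E box, and the Actc1 window 1 E box and 1 CArG box. RefSeq gave 42 such windows for 34 of the 48 genes. An E box was present in 83.3% of these windows and in 72.3% of all 32851 promoter windows of the same length, an MCAT element in 23.8% and 14.7%, a MEF2 site in 14.3% and 3.19%, and a CArG box in 14.3% and 1.63%. The MEF2 matches lay in Casq2, Ckb, Klhl41, Myoz2, Pvalb and Ttn, and the CArG matches in Acta1, Actc1, Ldb3, Myl3 and Myom1. A match is a description of these letters and not a binding site.

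Expression is given in FPKM, the number of fragments per length of transcript and per mapped fragments of the library, a level that is scaled by gene length. FPKM do not hold the depth of a library, so no counting error is given. Many deposited values had lost their decimal point, which was put back as described under the processing. For 12 of the 47 genes the power of 10 shared by all libraries could not be settled, and these genes are given as multiples of their control 4 value, which do not depend on it. For 2 others, Tnnt3 and Ckb, the level was estimated. Between 11725 and 11976 genes reached 1 FPKM in a library, and libraries correlated with each other at 0.933 to 0.949 over genes, which are no replicates. Hdac4 stood at 0.270 and 0.403 times its control 4 value in HDAC4 KO 3 and HDAC4 KO 4, against 0.862 times in control 3. This was a log2 difference of -1.44 ± 0.22 (SE), with an adjusted p of 0.188 over all genes tested and of 0.0406 when protein-coding genes alone were tested (limma). The cells carried myogenic markers in all libraries. Myod1 had 563 and 530 FPKM in the HDAC4 KO libraries, against 633 and 833 FPKM in the controls. Pax7 had an estimated 17.1 FPKM in both HDAC4 KO libraries, against 18.4 and 21.4 FPKM in the controls. Sdc4, another such marker, stood at 1.16 and 1.48 times control 4 in HDAC4 KO cells, against 0.881 times in control 3. Of 8 satellite cell and myoblast markers tested, 3 were higher and 1 lower at an unadjusted p under 0.05 (limma), against 10.5% and 3.56% of all genes.

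No gene of the list passed the test between HDAC4 KO and control cells. Of the 47 genes, 38 averaged at least 1 FPKM and were tested on log2(FPKM + 1) with limma, together with 12113 genes in all, and 0 of the 38 were called at a Benjamini-Hochberg adjusted p under 0.05. Over all genes, 30 (0.248%) were called, 6 of them higher and 24 lower in HDAC4 KO cells. At an unadjusted p under 0.05, 6 genes of the list were higher (10.5% of all genes) and 0 were lower (3.56% of all genes). The median log2 difference was -0.55 over the list and 0.04 over all genes tested, and 10 of the 38 genes had a difference above 0, against 57.3% of all genes. Of the 38, 12 averaged at least 1 FPKM through control 3 alone, which favours a negative difference. Over the 26 genes of the list with at least 1 FPKM in every library, the median was -0.13 and 10 lay above 0. The shift of the list rested on control 3. Without it, the median of the list was 0.16, 27 of the 38 genes lay above 0 (57.5% of all genes), and again 0 of them were called, while 0.867% of all genes were. At an unadjusted p under 0.05, 5 of them were then higher (8.68% of all genes) and 0 lower (3.34% of all genes). With control 3 left out, the lone control 4 is assumed to vary as the HDAC4 KO libraries do.

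Control 3 stood apart in many of these genes. It was the highest library in 35 of the 47, and exceeded each of the other 3 libraries at least 3 times in 25. The 47 include 9 genes that were not tested because they averaged under 1 FPKM. Among genes with at least 1 FPKM in every library, a filter that does not favour genes high in control 3 alone, control 3 reached 3 times each other library in 7 of 26 genes of the list, Actc1, Atp2a1, Ckm, Myl1, Mylpf, Tnnc2 and Tnni2, and in 0.108% of all genes. In the same 26 genes control 3 was the highest library in 14, against 24.4% of all genes under this filter. Over the 38 genes tested, control 3 reached 3 times each other library in 18, against 0.916% of all genes. It was the highest library in 26 of the 38, against 24.4%. Of these 38, 12 had a mean under 1 FPKM over the other 3 libraries and entered the test through control 3 alone. Among genes with at least 1 FPKM in every library, the median ratio of control 3 to control 4 was 1.55 over the 26 genes of the list and 0.979 over all genes. RNA is from bulk samples, so fewer cells of a type and less RNA per cell cannot be told apart.

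**Figure D1:**
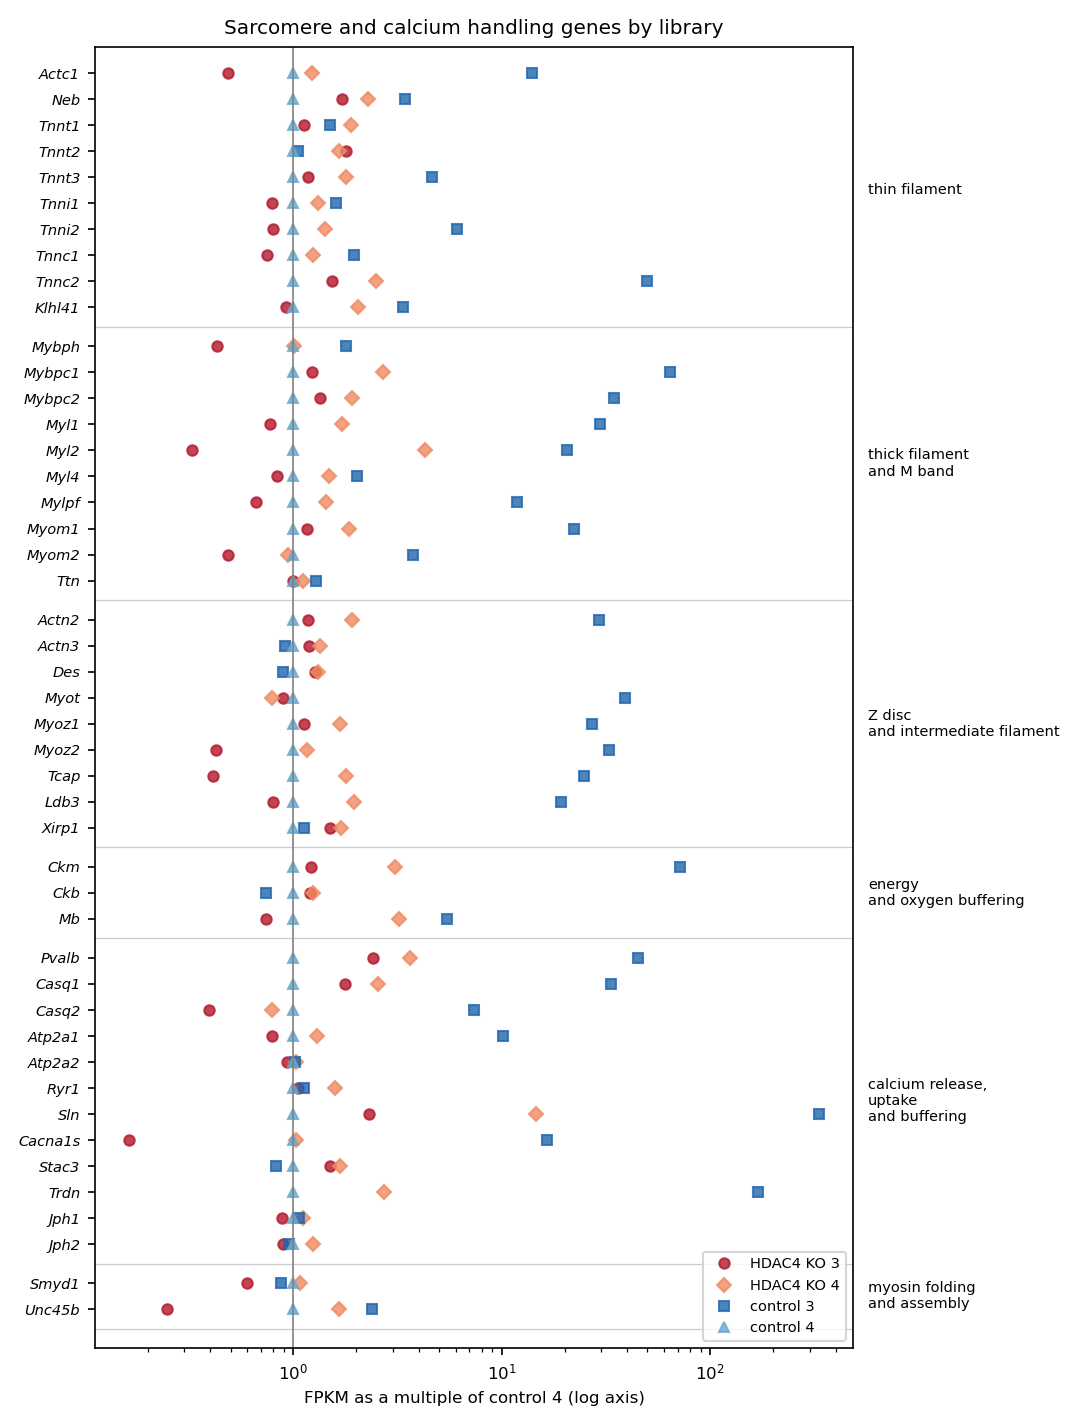
Expression of 46 sarcomere and calcium handling genes in each library as a multiple of control 4 (log axis), with genes grouped by role and a symbol for each library. Control 3 lies at the far right for most genes, up to 331 times control 4 for Sln, while control 4 lies between the HDAC4 KO libraries in 23 of the 47 genes with a value, below both in 21 and above both in 3. Myl3, listed at 0 in control 4, is left out, as is the HDAC4 KO 3 value of 0 of Trdn.

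The HDAC4 KO libraries also differed from each other. HDAC4 KO 4 was above HDAC4 KO 3 in 45 of the 47 genes. Among genes with at least 1 FPKM in every library, the median ratio of HDAC4 KO 4 to HDAC4 KO 3 was 1.58 over the 26 genes of the list and 0.998 over all genes. Among those tested it was above in 36 of 38 genes, against 48.6% of all genes, the exceptions being Tnnt2 and Myot, and it was at least 1.5 times as high in 24 of the 38, against 4.95% of all genes. Of the 38 genes tested, control 4 lay between the HDAC4 KO libraries in 18 (25.7% of all genes), below both in 17 (44.2% of all genes) and above both in 3 (30.1% of all genes). Myog, the transcription factor of myoblast differentiation, followed the same order within the HDAC4 KO group, at an estimated 18.4 FPKM in HDAC4 KO 3 and 33.8 FPKM in HDAC4 KO 4, against 13.5 FPKM in control 3 and 18.7 FPKM in control 4.

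In 6 of the 38 genes tested, both HDAC4 KO libraries lay above both controls, a lower share than the 30.7% of all genes. Tnnt2, cardiac troponin T, which embryonic and regenerating skeletal muscle also makes, had 66.0 and 61.6 FPKM in HDAC4 KO cells, against 39.1 and 37.0 FPKM in control cells. Its log2 difference was 0.73 ± 0.10 (SE), with an unadjusted p of 0.00119 and an adjusted p of 0.157 (limma). Control 3 did not stand apart here, and the gap between the groups was several times the gap within either. Tnnt2 was picked because its groups did not overlap, so this gap is no further support for a difference. Stac3, an adaptor that the voltage sensor needs to open the ryanodine receptor, had 19.2 and 21.4 FPKM in HDAC4 KO cells, against 10.6 and 12.8 FPKM in control cells. Its log2 difference was 0.75 ± 0.14, with an adjusted p of 0.226.

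Xirp1, an actin-binding repair protein of the Z disc and myotendinous junction, was at 1.51 and 1.69 times control 4 in HDAC4 KO cells, against 1.13 times in control 3 (log2 difference 0.57 ± 0.12, adjusted p 0.242, limma). Des encodes desmin, the intermediate filament that ties Z discs together and that myoblasts already make. It stood at 1.26 and 1.31 times control 4 in HDAC4 KO cells, against 0.890 times in control 3 (0.45 ± 0.10, adjusted p 0.262). Actn3, the alpha-actinin of fast fibres, stood at 1.19 and 1.35 times control 4 in HDAC4 KO cells, against 0.911 times in control 3 (0.40 ± 0.11, adjusted p 0.296). Ckb, the brain-type creatine kinase that myoblasts use before they switch to Ckm, had an estimated 107 and 110 FPKM in HDAC4 KO cells, against 65.3 and 88.5 FPKM in control cells (0.50 ± 0.17, adjusted p 0.331). None of these 6 passed the threshold in the 14 alternatives in which they could be fitted, and their direction was the same in these 14. The log2 difference of Tnnt2 lay between 0.67 and 0.78 and its adjusted p between 0.0517 and 0.729. That of Ckb depended most on a single library, at 0.29 without control 3 and 0.72 without control 4, and its adjusted p lay between 0.183 and 0.729.

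**Figure D2:**
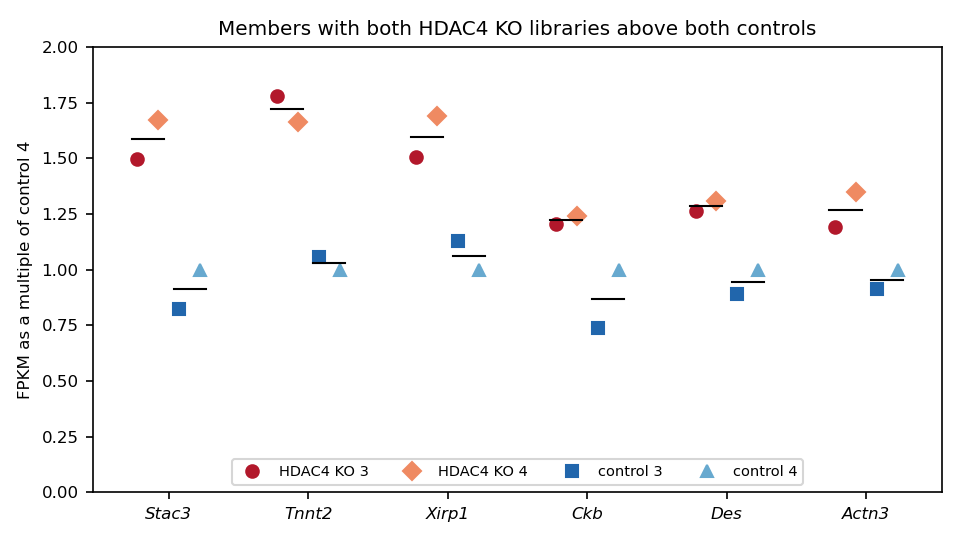
The 6 genes with both HDAC4 KO libraries above both controls, as multiples of control 4 on a linear axis from 0, with 1 symbol per library and a line at the mean of each group of 2 libraries. Tnnt2 shows 1.78 and 1.67 times control 4 in the HDAC4 KO libraries against 1.06 times in control 3, and the narrowest gap is that of Actn3.

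Beside these 6 genes, summed levels of marker lists of other cell types lay above both controls in either HDAC4 KO library. The summed level of 7 of the 8 smooth muscle and pericyte markers was 95.8 and 116 FPKM in HDAC4 KO cells, against 50.0 and 34.6 FPKM in control cells. For 5 of the 8 markers of fibro-adipogenic progenitors the sums were 60.3 and 56.9 FPKM, against 36.6 and 26.0 FPKM. Gsn made up most of these sums in HDAC4 KO cells, and without Gsn the sum in control 3 was not below theirs. For 6 of the 8 glial markers the sums were 15.2 and 12.3 FPKM, against 6.73 and 4.01 FPKM. No marker of these 3 lists was listed at 0 in any library. None passed the test over all genes, while Gsn, Cspg4, Tagln and Ngfr, all higher, passed it with protein-coding genes alone (0.660% of these called), Tagln being named here after its values were seen, and Gsn and Cspg4 passed it also with a robust prior and with at least 1 FPKM in every library. In the test over all genes, 3 of 3, 1 of 7 and 4 of 6 markers tested in the 3 lists were higher at an unadjusted p under 0.05 (10.5% of all genes). The genes named from these lists, by the highest likely level, since a shared power of 10 is open for Cspg4, Col3a1, Ngfr and Pmp22, were Cspg4, at 1.96 and 2.08 times control 4 against 0.978 times in control 3, Acta2, at an estimated 45.6 and 60.8 FPKM against 24.6 and 17.3 FPKM, Gsn, at an estimated 41.9 and 40.5 FPKM against 18.0 and 19.6 FPKM, Col3a1, at 0.914 and 1.12 times control 4 against 1.17 times, Ngfr, at 1.86 and 1.82 times against 0.874 times, and Pmp22, at 1.06 and 1.60 times against 1.11 times. Their part in the differences of the 6 genes was not tested.

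Among the thin filament genes, control 3 was at least 3 times each other library in Actc1, described below, and in the fast troponins Tnnc2 and Tnni2. For Tnnt3 it was 2.60 times the next library. Tnnc2, the calcium-binding troponin C of fast fibres, had 2.35 and 3.82 FPKM in HDAC4 KO cells, against 76.4 FPKM in control 3 and 1.54 FPKM in control 4. Tnni2, the inhibitory troponin I of fast fibres, had 8.62 and 15.3 FPKM in HDAC4 KO cells, against 65.3 and 10.8 FPKM. Tnnt3, the tropomyosin-binding troponin T of fast fibres, had an estimated 24.1 and 36.7 FPKM, against 95.6 and 20.5 FPKM. In these 3 genes control 4 lay near or within the range of the HDAC4 KO libraries, and control 3 lay above every other library.

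The slow troponins were closer between libraries. Tnnt1 stood at 1.12 and 1.89 times control 4 in HDAC4 KO cells, against 1.49 times in control 3, Tnni1 at 0.788 and 1.32 times against 1.60 times, and Tnnc1 at 0.748 and 1.24 times against 1.95 times. The groups overlapped in each. Actc1, the cardiac alpha-actin that is also the main sarcomeric actin of early skeletal muscle, stood at 0.484 and 1.24 times control 4 in HDAC4 KO cells, against 14.0 times in control 3. Neb encodes nebulin, the giant protein that runs along the thin filament. It had 5.27 and 7.03 FPKM in HDAC4 KO cells, against 10.6 FPKM in control 3 and 3.09 FPKM in control 4, so that both HDAC4 KO libraries lay between the controls. Its log2 difference was 0.04 ± 0.54 with all libraries and 0.79 ± 0.22 without control 3, with an adjusted p of 0.417 there. Klhl41, which stabilises nebulin, had 1.04 and 2.30 FPKM, against 3.79 and 1.13 FPKM.

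Among the genes of the thick filament and the M band, control 3 exceeded every other library at least 3 times in 8 of 11. Of these 8, only Myl1 and Mylpf had at least 1 FPKM in every library, a filter under which this held for 0.108% of all genes. Mylpf, the regulatory light chain of fast fibres, was by far the most abundant of the 11 genes, among those with a settled level. It had 77.9 and 168 FPKM in HDAC4 KO cells, against 1394 FPKM in control 3 and 117 FPKM in control 4. Its log2 difference was -1.82 ± 1.27 with all libraries and -0.04 ± 0.62 without control 3. Myl1, the essential light chain of fast fibres, had 2.59 and 5.72 FPKM in HDAC4 KO cells, against 99.2 and 3.35 FPKM. Myl2, the slow and cardiac regulatory light chain, had 0.135 and 1.78 FPKM, against 8.52 and 0.413 FPKM. Myl3, the slow essential light chain, had 0.206 and 0.233 FPKM, against 2.87 FPKM in control 3, and was listed at 0 in control 4. Myl4, the embryonic and atrial light chain, departed from these, at 0.839 and 1.48 times control 4 in HDAC4 KO cells, against 2.03 times in control 3.

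The myosin-binding proteins C followed the same pattern. Mybpc1, the slow form, had 0.466 and 1.03 FPKM in HDAC4 KO cells, against 24.5 FPKM in control 3 and 0.380 FPKM in control 4. Mybpc2, the fast form, had 0.0681 and 0.0964 FPKM, against 1.75 and 0.0505 FPKM. Mybph, a smaller relative, had 0.454 and 1.06 FPKM, against 1.90 and 1.06 FPKM, so control 3 was 1.78 times the next library. The M band holds the centre of the thick filaments together. Myom1 had 0.145 and 0.231 FPKM in HDAC4 KO cells, against 2.77 and 0.125 FPKM, and Myom2 0.517 and 1.00 FPKM, against 4.00 and 1.07 FPKM. In Myom2 both HDAC4 KO libraries were below both controls, which held for 3 of the 38 genes tested (Casq2, Myom2 and Myot) and for 17.7% of all genes. Each of these 3 averaged under 1 FPKM over the libraries other than control 3 and entered the test through control 3 alone. Ttn, titin, the spring that spans from Z disc to M band, varied little, with 1.96 and 2.18 FPKM in HDAC4 KO cells, against 2.52 and 1.97 FPKM.

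The Z disc genes were split between those with and those without a high value in control 3. Actn2, the alpha-actinin that cross-links thin filaments in all fibres, had 0.638 and 1.05 FPKM in HDAC4 KO cells, against 16.0 FPKM in control 3 and 0.545 FPKM in control 4. Actn3, its fast-fibre relative, was not high in control 3. Ldb3, a scaffold of the Z disc, had 0.349 and 0.860 FPKM, against 8.40 and 0.438 FPKM. Tcap, telethonin, which caps titin, had 0.0589 and 0.256 FPKM, against 3.53 and 0.142 FPKM. Myoz1 and Myoz2, calsarcins that bind alpha-actinin and calcineurin in fast and slow fibres, had 0.367 and 0.547 FPKM and 0.0884 and 0.241 FPKM in HDAC4 KO cells, against 8.82 and 0.325 FPKM and 6.78 and 0.207 FPKM. Myot, myotilin, had 0.0925 and 0.0816 FPKM in HDAC4 KO cells, against 4.04 FPKM in control 3 and 0.103 FPKM in control 4. Myot averaged 0.0924 FPKM over the libraries other than control 3, so it entered the test through control 3 alone. With control 4 left out, its log2 difference was -2.21, in a fit where control 3 is the only control. That difference therefore follows from how the gene was admitted.

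Ckm, the muscle creatine kinase of the M band, had 1.28 and 3.24 FPKM in HDAC4 KO cells, against 75.9 FPKM in control 3 and 1.06 FPKM in control 4. Its log2 difference was -2.02 ± 1.81 with all libraries and 0.60 ± 0.51 without control 3, so the sign turned with that library and the standard error was close to the difference in both. Mb, the oxygen store myoglobin, stayed under 1 FPKM in every library, as did Pvalb, Cacna1s and Trdn, with values between 0 and 0.939 FPKM and control 3 highest in each.

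**Figure D3:**
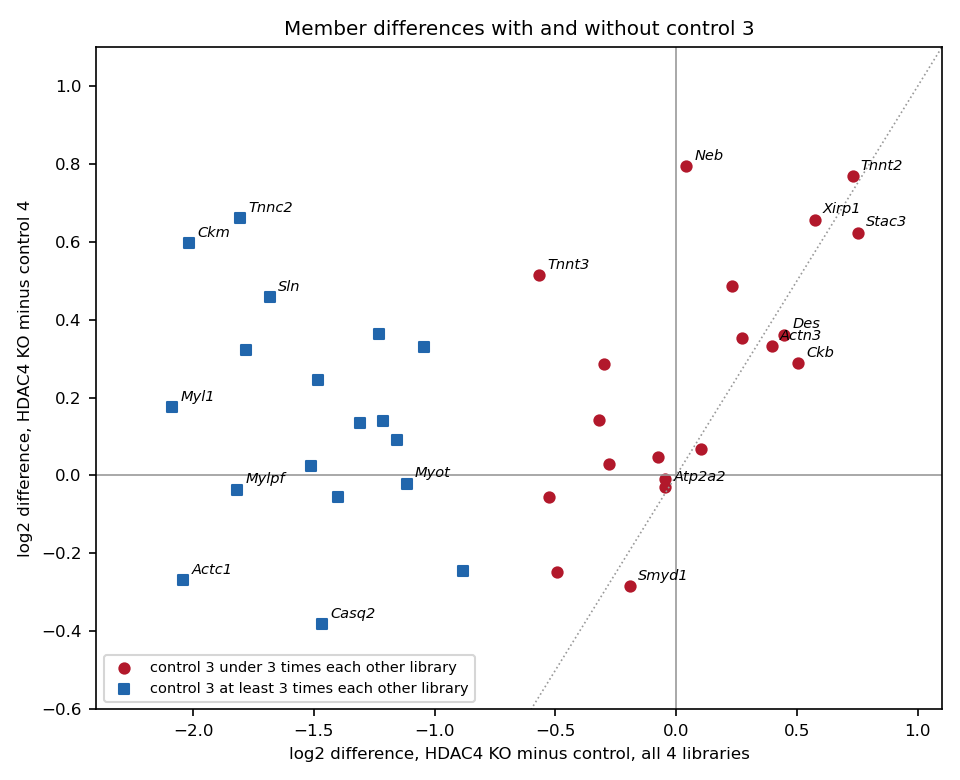
Log2 difference of the 38 tested genes, HDAC4 KO minus control, with all 4 libraries (horizontal axis) and without control 3 (vertical axis), squares marking the 18 genes in which control 3 was at least 3 times each other library. The squares lie between -2.09 and -0.88 on the horizontal axis and between -0.38 and 0.66 on the vertical axis, while Tnnt2, Stac3 and Xirp1 stay near the dotted line of equal values.

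Of the 12 calcium genes, 7 had control 3 at least 3 times each other library. Among these 7, only Atp2a1 had at least 1 FPKM in every library, a filter under which this held for 0.108% of all genes. Sln, sarcolipin, an inhibitor of the SERCA pump, had 0.137 and 0.864 FPKM in HDAC4 KO cells, against 19.6 FPKM in control 3 and 0.0592 FPKM in control 4. Casq1 and Casq2, the calsequestrins that store calcium in the sarcoplasmic reticulum of fast and of slow or cardiac muscle, had 0.584 and 0.848 FPKM and 0.483 and 0.974 FPKM in HDAC4 KO cells, against 11.1 and 0.331 FPKM and 9.02 and 1.23 FPKM. Casq2 was thus below both controls in either HDAC4 KO library, with a log2 difference of -1.47 ± 0.77 with all libraries and -0.38 ± 0.24 without control 3 (adjusted p 0.470 and 0.556, limma). Atp2a1, the SERCA pump of fast fibres, stood at 0.790 and 1.30 times control 4 in HDAC4 KO cells, against 10.2 times in control 3. Atp2a2, the SERCA pump that is also made outside muscle, was even across libraries, with 153 and 169 FPKM in HDAC4 KO cells, against 167 and 164 FPKM (log2 difference -0.05 ± 0.10).

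The genes of the triad, where the transverse tubule meets the sarcoplasmic reticulum, were mixed. Ryr1, the calcium release channel, stood at 1.05 and 1.59 times control 4 in HDAC4 KO cells, against 1.12 times in control 3 (log2 difference 0.27 ± 0.22). Jph1 and Jph2, the junctophilins that hold the membranes together, stood at 0.882 and 1.11 times and at 0.893 and 1.24 times control 4 in HDAC4 KO cells, against 1.07 and 0.948 times in control 3. Cacna1s, the voltage sensor itself, had 0.00915 and 0.0575 FPKM, against 0.927 and 0.0560 FPKM, and Trdn, triadin, was listed at 0 in HDAC4 KO 3 and at 0.00861 FPKM in HDAC4 KO 4, against 0.533 and 0.00315 FPKM. Pvalb, the cytosolic calcium buffer of fast fibres, had 0.0503 and 0.0758 FPKM, against 0.939 and 0.0209 FPKM. Of the 2 genes for myosin assembly, Smyd1, a methyltransferase, had 6.86 and 12.3 FPKM in HDAC4 KO cells, against 9.98 and 11.5 FPKM, and Unc45b, a myosin chaperone, 0.142 and 0.945 FPKM, against 1.36 and 0.572 FPKM. In neither did control 3 reach 3 times the next library.

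Genes of both fast and slow isoforms were among those high in control 3, and the classes were not tested against each other. Of 11 genes for fast skeletal isoforms, 9 had control 3 at least 3 times each other library, as did 8 of 13 genes for slow skeletal or cardiac isoforms. The median ratios of control 3 to control 4 were 27.1 and 10.7 (over 12 of the 13 in the slow class). Over all genes tested, control 3 was at least 3 times each other library in 0.916%. The median ratio of control 3 to control 4 was 0.978 over those above 0 in control 4. Against control 4 alone, the mean of the HDAC4 KO libraries had a median ratio of 1.41 over the fast class and 1.28 over the slow class. The lowest ratio was 0.593, for Casq2, and the highest 8.45, for Sln, whose control 4 level is 0.0592 FPKM. Both classes hold genes under 1 FPKM outside control 3, so their counts and ratios rest in part on control 4 values near 0. Both medians of the fast class are the values of Myoz1, at 0.325 FPKM in control 4.

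Other genes of the same pathways showed both patterns, but unevenly. Control 3 was at least 3 times each other library in 8 of 27 other sarcomere genes and in 1 of 25 other calcium handling genes. The same held in 5 of 12 muscle energy enzymes, 6 of 7 myosin heavy chains and 2 of 9 myogenic transcription factors. These counts include genes too low to be tested, and over all genes tested the share was 0.916%. None of 14 tested among 27 other sarcomere genes, 19 among 25 other calcium handling genes, 10 among 12 muscle energy enzymes, 2 among 7 myosin heavy chains and 6 among 9 myogenic transcription factors was called in either direction over all genes. With protein-coding genes alone, Mylk2 was called higher and no other of these. At an unadjusted p under 0.05, 3, 3, 0, 0 and 0 of these were higher (10.5% of all genes) and 0, 0, 0, 0 and 1 lower (3.56%). The smallest p among the higher sarcomere genes was that of Mylk2, the myosin light chain kinase of skeletal muscle, at 2.08 and 2.11 times control 4 in HDAC4 KO cells, against 1.16 times in control 3 (log2 difference 0.93 ± 0.11, adjusted p 0.137 over all genes and 0.0405 over protein-coding genes, limma). Tpm1, a tropomyosin, had 690 and 745 FPKM in HDAC4 KO cells, against 529 and 473 FPKM (0.52 ± 0.11, adjusted p 0.244). Jsrp1, a protein of the sarcoplasmic reticulum junction, stood at 1.75 and 1.57 times control 4, against 0.979 times in control 3 (0.72 ± 0.10, adjusted p 0.167), and Itpr3, an inositol trisphosphate receptor, had 7.38 and 7.15 FPKM, against 5.26 and 5.38 FPKM (0.39 ± 0.11, adjusted p 0.302). As with Tnnt2, control 3 did not stand apart in these 4 genes.

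Several genes named for their negative differences were high in control 3. Csrp3, a Z disc LIM protein, had 0.207 and 0.552 FPKM in HDAC4 KO cells, against 9.60 FPKM in control 3 and 0.174 FPKM in control 4, and Tmod4, a cap of the thin filament, 0.677 and 0.335 FPKM, against 2.82 and 0.224 FPKM. Cox8b, a muscle subunit of cytochrome oxidase, had 0.162 and 0.473 FPKM, against 5.06 and 0.432 FPKM. Myh8 and Myh3, the perinatal and embryonic myosin heavy chains, had 0.612 and 1.40 FPKM and 0.378 and 0.987 FPKM in HDAC4 KO cells, against 38.6 and 0.598 FPKM and 9.001 and 0.787 FPKM. Myh1, a heavy chain of adult fast fibres and a myofibre marker like Ckm, Mylpf and Atp2a1, had 0.395 and 0.624 FPKM, against 1.11 and 0.308 FPKM. Smaller negative differences without such a value were those of Cacnb1 (0.735 and 1.07 times control 4, against 1.23 times in control 3), Srl (0.990 and 1.05 times, against 1.65 times) and Eno3, muscle enolase (527 and 516 FPKM, against 575 and 629 FPKM). The remaining genes named by the smallest p were Cox7a1, at 1.34 and 1.19 times control 4 against 1.37 times, Aldoa, at 1144 and 1047 FPKM against 991 and 1162 FPKM, Mef2a, at an estimated 17.7 and 23.2 FPKM against 21.4 and 17.9 FPKM, and Myf5, at an estimated 10.8 and 11.0 FPKM against 14.0 and 13.03 FPKM.

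**Figure D4:**
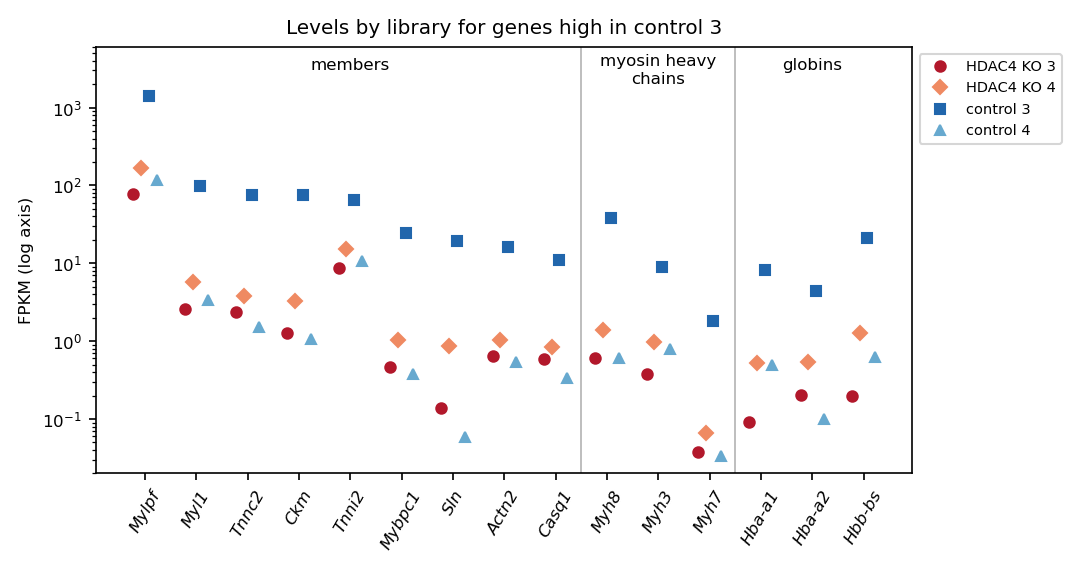
FPKM in each library (log axis) for 9 genes of the list, 3 myosin heavy chains and 3 globins, with a symbol for each library and vertical lines between the gene groups. Control 3 is the highest library for every gene plotted, at 1394 FPKM for Mylpf, 38.6 FPKM for Myh8 and 21.0 FPKM for Hbb-bs, and HDAC4 KO 4 is above HDAC4 KO 3 in each.

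Some genes of blood cells, chiefly globins, stood beside the muscle genes in control 3. The summed level of 11 of the 12 blood cell markers was 5.17 and 6.83 FPKM in HDAC4 KO cells, against 41.4 FPKM in control 3 and 4.78 FPKM in control 4, with control 3 at least 3 times each other library in 6 of 12 and no marker at 0. Hbb-bs, beta-globin, had 0.199 and 1.28 FPKM in HDAC4 KO cells, against 21.0 FPKM in control 3 and 0.620 FPKM in control 4, and Hba-a1, alpha-globin, 0.0926 and 0.531 FPKM, against 8.10 and 0.4998 FPKM. Hba-a1 and Hba-a2 are near-identical copies, so their separate values are uncertain. Together with Hba-a2 at 4.46 FPKM and Hbb-bt at 2.70 FPKM, these globins made up most of the blood cell sum in control 3. The 2 blood cell markers with at least 1 FPKM in every library were higher in HDAC4 KO cells, at log2 differences of 0.295 or more. The sums over 7 of 8 endothelial markers were 11.1 and 11.6 FPKM in HDAC4 KO cells, against 14.1 and 6.70 FPKM, with Cldn5 at 0 in control 4. The genes named from this list, by the highest likely level (open for Cdh5), were Egfl7, with 7.24 and 6.73 FPKM against 7.73 and 4.23 FPKM, and Cdh5, at 2.61 and 2.19 times control 4 against 1.55 times. Over 5 of 6 cardiac muscle markers the sums were 1.37 and 1.36 FPKM, against 0.934 and 0.519 FPKM. Tnni3 reached at most 0.657 FPKM and Nppb 0.773 FPKM, and Nppa and Myl7 were at 0 in at least 1 library. The part of blood cells, and of myofibre RNA as a whole, in the values of control 3 was not tested.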

How the data were processed

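Poly(A) RNA of 2 HDAC4 KO and 2 control libraries of mouse satellite cells was sequenced as single-end stranded reads. Per the submitters' processing notes, CASAVA 1.8.2, cutadapt, TopHat, Cufflinks and Cuffdiff were used, with the build GRCm38. For each library the authors deposited Cufflinks FPKM of every gene with confidence bounds, and a Cuffdiff table with a pooled FPKM per group, which also holds a log2 fold change, a test score, a p-value and a q-value of their own comparison. These comparison columns were not used. FPKM do not show read counts, so no depth per library or counting interval is given.

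Between 11652 and 11903 of 43496 deposited FPKM entries per library had lost their decimal point. It was put back where the estimate lay midway between its bounds (tolerance 4e-05 of the upper bound), where both libraries gave the authors' pooled FPKM (tolerance 0.004) and by the evenness of the bounds' width. Of the entries, 25395 genes were kept, 17712 were at 0 in every library. Others could not be used: 18 had a failed estimate, 91 no midpoint, 76 no match to the pooled value and 105 more than 1 ratio left. A further 99 entries under a repeated identifier were left out. In a check, 3000 genes that lay under 1 FPKM in every library and had kept every point were scaled up, and their points were hidden. The ratios between libraries came back right in 2830, wrong in 5, open in 105 and not at all in 60. The bounds in this check were those of low genes, so the rate for genes truly at 1 FPKM or more may differ. The shared power of 10 was settled in 17153 genes and estimated at a probability of at least 0.95 in 2414 (right in 193 of 194 hidden cases). It was open in 5828, where the most likely level entered the fit. That level was right in 84.00% of all 1369 hidden cases, which include those 194, so it was right less often in the others. An open level acts on a log2 difference only through the pseudocount and the filter. Levels are printed for the first 2 classes.

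Genes that averaged at least 1 FPKM were tested as HDAC4 KO minus control on log2(FPKM + 1) with limma 3.58.1 in R 4.3.3 (mean-dependent prior), and called at a Benjamini-Hochberg adjusted p under 0.05 over all 12113 genes. The pseudocount understates the change of low genes. The smallest p that an exact, two-sided permutation test can give with 2 libraries a group is 0.333, so this test was left out. The method was tested on simulated data, and restoration and summaries used Python 3.11.15. All genes of the list are named, with each library's value for those at 1 FPKM or more in at least 1 library and for some below it. From each other pathway list, up to 2 genes with the smallest p in each direction were named, and from each marker list the 2 with the highest FPKM. The members, lists and tests were chosen with earlier results of these data known. The alternatives were other pseudocounts, filters, scalings and priors, protein-coding genes alone, each library left out in turn, a replicate block, and genes restored from their own library's bounds alone. Promoter windows came from RefSeq (GRCm38.p6).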

Additional observations from a re-analysis of the deposited data

How the results depend on the processing

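No gene of the list was called at an adjusted p under 0.05 with all 4 libraries, and none was under the other pseudocounts, filters, scalings and priors, with protein-coding genes alone or with the replicate block. With each library left out in turn, between 0 and 1 genes of the list were called, the 1 being Myot without control 4, and the median log2 difference of the list lay between -1.26 and 0.16 (0.16 without control 3, where 27 of 38 genes lay above 0, and -1.26 without control 4, against -0.26 when HDAC4 KO 3 and -0.87 when HDAC4 KO 4 was left out). Myot had entered the test through control 3 alone. Where each library's own bounds sufficed to restore the points, 1 gene of the list was left, Casq2, at -1.47. The 30 genes called over all genes became 11 with a pseudocount of 5, 0 with no filter on low values, 18 with at least 1 FPKM in every library, 70 with protein-coding genes alone, 58 with a robust prior, 0 of 306 with points restored from each library's own bounds, and between 0 and 105 with a library left out (105 without control 3, 103 without control 4 and 0 without either HDAC4 KO library). The replicate numbers were not shown to pair the libraries (correlation over genes of the HDAC4 KO and the control differences between replicates 3 and 4, -0.0536). With the replicate block, 24 genes were called over all genes, 0 in the list, and the median of the list was -0.55. The log2 difference of Neb turned to -0.017 with a pseudocount of 5 and to -0.0081 with median-ratio scaling. Over the 4 fits that each left out a library, 24 of 38 genes changed sign at least once, 17 of them without control 3. Their log2 differences ranged as follows: Neb -0.71 to 0.79, Tnnt1 -0.11 to 0.57, Tnnt3 -1.65 to 0.51, Tnni1 -0.61 to 0.0535, Tnni2 -2.41 to 0.09, Tnnc2 -4.27 to 0.66, Klhl41 -0.89 to 0.29, Mybpc1 -3.88 to 0.32, Myl1 -4.35 to 0.18, Myl2 -2.42 to 0.33, Myl4 -0.78 to 0.14, Ttn -0.20 to 0.0471, Actn2 -3.21 to 0.24, Myoz1 -2.76 to 0.13, Ldb3 -2.57 to 0.14, Ckm -4.63 to 0.60, Casq1 -2.82 to 0.36, Atp2a1 -3.04 to 0.0242, Atp2a2 -0.12 to 0.0286, Ryr1 -0.0137 to 0.56, Sln -3.82 to 0.46, Jph1 -0.18 to 0.0814, Jph2 -0.11 to 0.31, Smyd1 -0.57 to 0.19. The cause was not tested. The other 14 genes kept their sign in all 4 fits. Tnnt2, Stac3, Xirp1, Des, Actn3 and Ckb were higher in HDAC4 KO cells. Actc1, Tnnc1, Mybph, Mylpf, Myom2, Myot, Myoz2 and Casq2 were lower. Of the other genes named, Hdac4, Mylk2, Gsn, Cspg4, Tagln and Ngfr were called with protein-coding genes alone and not over all genes.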
